A study of Mus musculus with 6 samples.

Results

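Gene expression was described within 1 culture, neurospheres grown from the palate of adult C57BL/6J mice and called pNCSC (palate neural crest stem cells) in the labels. Its members are the 3 arrays with that title, of the 6 arrays in the series, and no contrast with the other culture, neurospheres from embryonic dorsal root ganglia, is made here. For a gene with several probe sets, the one with the strongest average on these 3 arrays was used, which gave 18194 named genes. The palatal tissue came from 3 to 5 mice aged 6 to 8 weeks and was dissociated with enzymes and by trituration, and spheres of passage 3 were used, with 500 ng of total RNA per labelling. All 3 arrays share the same serum-free DMEM/F12 medium with EGF (20 ng/ml), basic fibroblast growth factor (bFGF), heparin (0.5 U/ml), N2 and B27. The labels give bFGF as 20 or 40 ng/ml and B27 as 1% or 3% without assigning a level to this culture. They do not say whether the mice were pooled, or whether the arrays came from separate cultures, so the spread between arrays may be partly technical. The spheres were neither sorted nor cloned according to the labels, and no array of uncultured palate stands beside them.

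The neural crest is a population of embryonic cells that leaves the neural tube and forms peripheral neurons and glia, melanocytes and, in the head, much of the connective tissue and skeleton of the face, the palate included. Crest-derived cells kept as free-floating neurospheres are known to retain some crest transcription factors while the medium, rich in fibroblast growth factor and EGF, favours dividing progenitors. Palatal mucosa also holds fibroblasts, pericytes, fat cells, skeletal muscle, epithelium, mast cells and macrophages, any of which can be carried into a primary culture. In RNA from whole spheres, fewer cells of a type and less RNA per cell cannot be told apart.

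All levels below are the authors' normalized log2 signals. A step of 1 is a doubling of signal, and 4 is used as the level under which weak probe sets pile up. Where 3 levels follow each other they belong to replicates 1, 2 and 3, in that order. A probe set's signal depends on its probes as well as on its transcript, so the order of different genes by signal is only an approximate order of abundance. The 3 arrays had medians of 4.01 to 4.03, and 50.2% to 50.4% of the probe sets reached 4 on each. Over all probe sets, replicates 2 and 3 correlated at r = 0.9961, and replicate 1 correlated at 0.9884 with replicate 2 and at 0.9906 with replicate 3. Between replicates 2 and 3, 0.599% of the probe sets lay 1 or more apart on the log2 scale, against 3.43% between replicates 1 and 2 and 2.65% between replicates 1 and 3. Replicate 1 therefore stood apart from the other 2, and results that rest on it are named as such. Of the 18194 genes, 10656 (58.6%) reached 4 on all 3 arrays, 818 on some and 6720 on none. A mean of 10 or above was found for 2678 (14.7%). Counts of list members below are to be read beside these shares of all genes.

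The 5 genes taken as markers of this culture were all among the strong signals, and none of them was spread 2-fold over the arrays. Mmp3, a matrix metalloproteinase that cleaves many matrix proteins, was at 14.85, 15.14 and 14.98. Dmp1, an acidic matrix protein of bone and dentine, was at 14.90, 14.88 and 14.54, and its other probe sets were also strong, with means of 14.69 and 12.06. The fibrillar collagen gene Col3a1 was at 14.46, 14.49 and 14.44, nearly the same on every array. Rgs5, a regulator of G protein signalling that is typical of pericytes, was at 14.12, 14.39 and 14.47. Crabp1, which binds retinoic acid in the cytoplasm, was the least even of the 5, at 13.37, 12.92 and 12.42. Since these 5 were picked with earlier results of these arrays known, their levels describe the culture and do not test its name.

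The labels state that these spheres lose the peripheral markers Sox10 and p75 and gain no markers of central nervous system progenitors. Sox10, the transcription factor of crest cells and glia, was at 4.43, 4.90 and 5.44 on its strongest probe set and under 4 on all arrays for its other 2. Ngfr, which encodes p75, was at 6.22, 7.79 and 8.55 on its strongest probe set, with its other 2 under 4 on all arrays. Both genes were thus lowest on replicate 1 and highest on replicate 3, and p75 signal was clearly above 4 on every array by 1 of its 3 probe sets. Olig2, an oligodendrocyte and motor neuron factor, was under 4 on all arrays, at 2.26, 2.40 and 2.63. Cnp, a myelin enzyme gene also active outside glia, was at 8.98, 8.95 and 9.16 on its strongest probe set. The other probe sets of Cnp were much weaker, with means of 4.56 and 4.65. Whether Sox10 or Ngfr had fallen during culture cannot be read from these arrays, which hold no earlier time.

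Among the 30 highest signals, with means from 14.36 to 15.48, 12 belonged to ribosomal protein genes, headed by Rps29 at 15.47, 15.48 and 15.50. The others fell into a few plain groups. Cytoskeletal and calcium-binding genes were represented by Vim (15.01, 15.00 and 15.00), the intermediate filament of mesenchymal cells, and by the actin-severing gene Gsn (14.71, 15.05 and 15.12), Anxa1, S100a6 and Lgals1. Secreted proteins of the acute phase and of innate defence were represented by Lcn2 (14.54, 15.33 and 14.83), which sequesters bacterial siderophores, the lipoprotein-associated Saa3 (14.29, 14.70 and 14.49), the copper carrier Cp (14.41, 14.43 and 14.49) and the extracellular chaperone Clu (14.88, 14.55 and 14.84). The matrix genes Mmp3, Dmp1 and Col3a1 were also among these 30. The iron store Fth1 (15.17, 15.47 and 15.35), the chaperones Hspa8, Hsp90b1 and Hspa5, the translation-associated Tpt1 and the reductase gene Akr1a1 completed them. The range over the 3 arrays within these 30 genes went from 0.013 to 0.79, the value of Lcn2, so none was spread 2-fold.

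The 3 arrays were set against each other, gene by gene, over the 11065 autosomal genes that reached 4 on at least 1 of them. Genes of this kind are called examined below, and a gene is called spread when its highest and lowest arrays differ by the fold given. With values under 4 set to 4, 961 genes (8.69%) were spread 2-fold or more from the highest to the lowest array and 198 (1.79%) 4-fold or more. Replicate 1 was furthest from the other 2 in 735 of the 961 (6.64% of the genes examined) and in 167 of the 198. It was the highest array for 625 genes (5.65%) and the lowest for 282 (2.55%), while replicate 2 was the highest for 205 (1.85%) and replicate 3 for 131 (1.18%). Without replicate 1, 150 genes were spread 2-fold or more and 17 were spread 4-fold or more. Of 319 spread genes with a second probe set that reached 5 on some array, that second probe set was highest on the same array for 288 (90.3%) and was itself spread 2-fold or more for 217 (68.0%). Of the 705 autosomal list members that reached 4 on an array, 219 were spread 2-fold or more. With 3 arrays and no contrast, these are descriptions of spread and not tests.

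**Figure D1:**
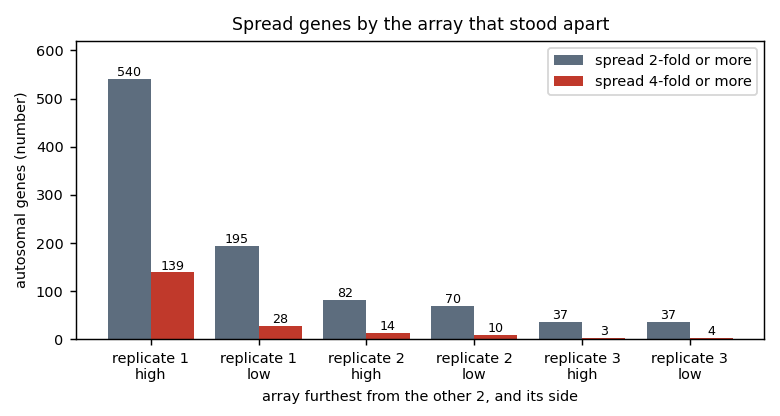
Number of autosomal genes spread 2-fold or more (grey, 961 in all) and 4-fold or more (red, 198) by the array that lay furthest from the other 2 and its side. Replicate 1 on the high side holds 540 and 139 of them, and replicate 1 on the low side 195 and 28.

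**Figure D2:**
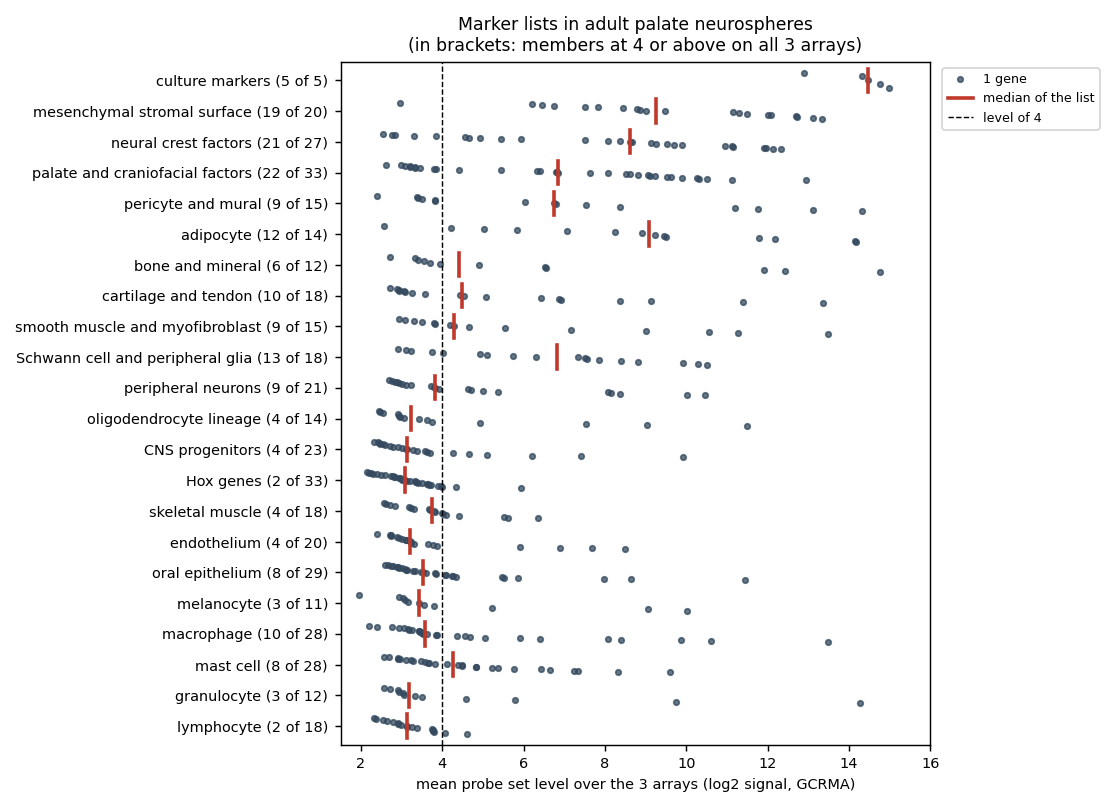
Mean probe set level (log2 signal, over the 3 arrays) of every named member of the marker lists, with 1 point per gene, a red bar at the list's median and a dashed line at 4. The mesenchymal surface list has 19 of 20 members at 4 or above on all arrays, while the lymphocyte list has 2 of 18 and the Hox list 2 of 33.

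Surface proteins of mesenchymal stromal cells were read almost throughout: 19 of 20 members reached 4 on all arrays and 9 had a mean of 10 or above, against 58.6% and 14.7% of all genes, and the list median was 9.25 against 5.20. The hyaluronan receptor gene Cd44 was at 13.06, 13.47 and 13.47, the PDGF receptor gene Pdgfrb at 13.45, 12.76 and 13.14, the adhesion gene Alcam at 12.80, 12.71 and 12.67 and the integrin gene Itgav at 12.55, 12.76 and 12.80. Only Dpp4 of this list lay under 4 on all arrays. Thy1, a surface glycoprotein used to define stromal cells, was at 10.87, 7.13 and 7.35, so that replicate 1 was 13.4-fold above the lowest array while replicates 2 and 3 were close. Pi16, a marker of adventitial fibroblasts, was likewise highest on replicate 1, at 10.72, 8.61 and 7.24.

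Genes of the neural crest, mostly transcription factors with the receptors Ngfr and Ednrb, were read for 21 of 27 members (77.8%, against 58.6% of all genes). A mean of 10 or above was found for 7 (25.9%, against 14.7%). The orphan nuclear receptor gene Nr2f1 was at 12.30, 12.20 and 12.50, and the inhibitors of basic helix-loop-helix factors Id3 (12.23, 12.15 and 12.00), Id2 (11.73, 11.87 and 12.29) and Id1 (11.39, 12.43 and 11.89) followed. Under 4 on all arrays lay Msx2, Tfap2b, Pax7, Prdm1 and Sox8. Of 22 members examined for spread, 6 were spread 2-fold or more (8.69% of all genes examined were), 5 of them lowest on replicate 1 (2.55% of all), and Ngfr had the widest range. Among factors of the palate and face, 22 of 33 (66.7%) reached 4 on all arrays. Prrx1, a homeobox factor of limb and facial mesenchyme, was at 13.05, 12.88 and 12.87, Twist1 at 10.94, 11.18 and 11.24, Prrx2 at 10.02, 10.82 and 10.70 and Tbx3 at 10.23, 10.36 and 10.16. These 4 were even over the arrays. Osr1, a zinc finger factor of embryonic mesoderm, was not, at 8.55, 5.89 and 6.06, with replicate 1 6.33-fold above replicate 2. Of 33 Hox genes, which pattern the trunk and are silent in the crest of the face, 2 reached 4 on all arrays, Hoxa3 at 5.85, 5.92 and 6.00 and Hoxb4 at 4.22, 4.35 and 4.45. The other probe sets of Hoxa3 and Hoxb4 lay under 4 on all arrays.

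Genes of the nervous system were read in part. In the Schwann cell and peripheral glia list, 13 of 18 members reached 4 on all arrays, with Pmp22 at 10.49, 10.55 and 10.51 and the cadherin gene Cdh19 at 9.32, 10.48 and 11.05, while Mbp, Gfap, Mal and Mag lay under 4 throughout. Of 13 glial members examined, 7 (53.8%) were spread 2-fold or more, against 8.69% of all genes examined. Spread and lowest on replicate 1 were 6, and spread and highest on replicate 3 were 5, against 2.55% and 1.18% of all genes examined. Among those highest on replicate 3 were Ngfr and Erbb3, the neuregulin receptor of Schwann cells, at 5.20, 6.41 and 7.31. Without replicate 1 none of this list was spread 2-fold. Of 21 genes of peripheral neurons, 9 reached 4 on all arrays (42.9%, against 58.6% of all genes). The strongest were Runx1 (10.35, 10.62 and 10.44), also a blood cell factor, the synaptic vesicle fusion gene Snap25 (10.66, 9.32 and 10.09), and the neurotrophin receptor genes Ntrk3 (8.34, 8.61 and 8.14) and Ntrk2 (8.02, 8.19 and 8.00). The defining Tubb3 was at 5.02, 5.25 and 5.82 while Elavl4 and Stmn2 stayed near 4. Tac1, the substance P precursor, was at 10.22, 6.93 and 7.31 and so 9.78-fold higher on replicate 1 than on replicate 2. The other probe set of Tac1 lay under 4 on all arrays. Among 23 markers of central nervous system progenitors only Sox2 (9.97, 9.53 and 10.24), the glutamate transporter gene Slc1a3 (7.71, 7.29 and 7.19), Nes (6.43, 5.82 and 6.37) and Fabp7 (4.14, 5.67 and 5.49) reached 4 on all arrays. The first of these is shared with crest-derived glia, as is Fabp7. In the oligodendrocyte list, 4 of 14 members reached 4 on all arrays, Pdgfra, Cnp, Cspg4 and Sox10, all of which are also expressed outside that lineage.

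Lists for skeletal tissues were split. Beside Dmp1, the pyrophosphate transporter gene Ank (12.06, 13.01 and 12.24) and the mucin-type glycoprotein gene Pdpn (12.30, 12.13 and 11.33) were strong, whereas the defining bone genes Ibsp (5.79, 6.79 and 6.99) and Sp7 (4.15, 3.75 and 3.95) were low and Alpl lay under 4 on all arrays. In the cartilage and tendon list, 10 of 18 members reached 4 on all arrays, led by the lubricin gene Prg4 at 13.55, 13.10 and 13.40 and the link protein gene Hapln1 at 11.03, 11.52 and 11.60, with Acan, Col2a1 and Tnmd under 4. Pericyte genes were read for 9 of 15 members. This share (60%) and that of the cartilage and tendon list (55.6%) were close to the 58.6% of all genes. With Rgs5, the potassium channel genes Abcc9 (11.86, 11.56 and 11.88) and Kcnj8 (11.15, 10.80 and 11.62), which define the list, were strong on every array, while Cox4i2, Anpep, Higd1b, Heyl and Vtn lay under 4. Contractile genes of smooth muscle included both ends of the range: Cald1 (13.58, 13.34 and 13.55) and Tpm1 (11.62, 11.07 and 11.10) were strong, but Acta2 was at 7.59, 6.94 and 6.98 and Myh11, Cnn1, Myl9 and Myocd lay under 4 on all arrays.

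Matrix families differed in how many members were read, where 58.6% of all genes reached 4 on all arrays. Of 11 fibrillar collagen genes, 9 reached 4 on all arrays, with Col5a2 at 13.57, 13.77 and 13.69, Col1a2 at 13.11, 13.32 and 12.92 and Col5a1 at 11.77, 11.72 and 11.72 beside Col3a1, and only Col2a1 and Col11a2 under 4. In the basement membrane list, 15 of 22 reached 4 on all arrays, led by Col18a1 (12.61, 13.40 and 13.25), the nidogen gene Nid1 (13.18, 12.65 and 12.66), Lamb1 (12.47, 12.60 and 12.58) and Col4a1 (12.53, 12.73 and 12.20). Among matrix glycoproteins, 25 of 34 reached 4 on all arrays and 15 had a mean of 10 or above. The collagen-binding Sparc was at 14.15, 14.32 and 14.27, the calcification inhibitor Mgp at 13.90, 14.68 and 14.08, Sparcl1 at 14.20, 14.11 and 14.13 and Efemp1 at 13.62, 13.97 and 13.99. The small leucine-rich proteoglycan genes Bgn (13.94, 14.08 and 13.89), Dcn (14.09, 13.28 and 13.77) and Lum (13.22, 12.65 and 13.02) stood beside Prg4 at the top of a list in which 12 of 22 (54.5%) reached 4 on all arrays. Of 19 other collagen genes 11 (57.9%) did, led by the collagen VI genes Col6a3 (12.49, 13.66 and 12.87), Col6a1 (11.64, 12.01 and 11.94) and Col6a2 (10.62, 10.91 and 10.80), and Col8a1 was the most spread at 7.32, 4.74 and 4.23. The shares of these last lists were close to that of all genes. Enzymes and partners of collagen and elastic fibre assembly were read for 23 of 24 genes, among them the collagen chaperone gene Serpinh1 (13.88, 13.89 and 13.83), Pcolce (13.59, 13.69 and 13.82), the cross-linking enzyme gene Lox (12.35, 13.37 and 13.00) and Emilin2 (12.06, 12.25 and 11.80).

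Genes for matrix breakdown and its inhibitors were read together. Of 28 matrix protease genes, 24 (85.7%) reached 4 on all arrays and 14 (50%) had a mean of 10 or above, against 58.6% and 14.7% of all genes. After Mmp3 came the cysteine protease gene Ctsl (14.07, 14.68 and 14.24), the collagenase gene Mmp13 (14.39, 13.70 and 13.46) and Ctsb (13.15, 13.85 and 13.38). Of 13 protease inhibitor genes, 11 (84.6%) reached 4 on all arrays, against 58.6% of all genes. Timp2 was at 13.92, 14.22 and 13.97, the leukocyte protease inhibitor gene Slpi at 13.54, 14.51 and 13.95, and Serpinf1 and Serping1 both between 13.57 and 13.78. The proteases were uneven over the arrays. Of 25 examined, 11 (44.0%) were spread 2-fold or more, and 10 of these were highest on replicate 1, against 8.69% and 5.65% of all genes examined. Mmp10, a stromelysin, was at 12.53, 10.46 and 8.73, and Mmp12, the macrophage elastase gene, at 13.23, 9.74 and 10.51, so replicate 1 was the highest for both. Without replicate 1, 2 protease genes were spread 2-fold or more.

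Acute phase and antimicrobial genes were read nearly throughout: 19 of 22 (86.4%) reached 4 on all arrays and 12 (54.5%) had a mean of 10 or above. The shares of all genes were 58.6% and 14.7%. The list median was 11.08. Beside Lcn2, Clu, Saa3 and Cp, the calprotectin subunit gene S100a8 was at 14.15, 14.26 and 14.41, while its usual partner S100a9 lay under 4 on all arrays, at 3.13, 3.04 and 2.90. The cathelicidin gene Camp was the most spread of this list, at 8.68, 10.57 and 10.01. Of 18 complement genes, 7 (38.9%) reached 4 on all arrays, against 58.6% of all genes. Serping1, which inhibits the first component, was at 13.57, 13.77 and 13.64, and the subcomponent genes C1s1 (11.97, 10.84 and 11.23) and C1ra (9.43, 9.29 and 9.49) followed, while C1qa, C1qb and C1qc, which macrophages supply, lay under 4. Class I antigen presentation was strong and even, with B2m at 14.22, 14.16 and 14.17 and H2-D1 at 12.40, 12.54 and 12.55. Class II genes were at the other end, with H2-Aa, H2-Eb1, Cd74 and their activator Ciita under 4 on all arrays.

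Chemokines that attract neutrophils and monocytes were strong: Cxcl1 was at 12.72, 13.11 and 13.07, Ccl2 at 13.04, 12.17 and 12.13, Cxcl5 at 11.59, 12.30 and 12.03 and Ccl7 at 11.69, 10.91 and 10.33. Of 32 chemokine genes, 17 reached 4 on all arrays (53.1%, against 58.6% of all genes). Among interleukins, colony factors and related ligands, 16 of 34 did, led by Tnfsf11, the osteoclast differentiation factor RANKL, at 12.92, 12.75 and 13.11 and Kitl, the ligand of the mast cell and melanocyte receptor Kit, at 12.79, 12.75 and 12.59. Il33, an alarmin of stromal nuclei, was at 13.62, 11.10 and 10.87, and Il11 at 12.12, 10.12 and 10.86, with replicate 1 highest for both. Cytokines made mainly by leukocytes, among them Il1b, Tnf, Ifng, Il2, Il4, Il10 and Il13, lay under 4 on all arrays. Cytokine receptor genes were read for 24 of 31, with the interleukin-13 receptor chain Il13ra1 at 12.36, 11.88 and 12.20, the oncostatin M receptor Osmr at 11.96, 11.89 and 11.83 and the shared signal chain Il6st at 11.30, 10.82 and 10.76.

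Receptors for the factors supplied in the medium were present in part. Fgfr1, the main fibroblast growth factor receptor of mesenchyme, was at 11.38, 11.78 and 11.43 on its strongest probe set. Fgfr2 was at 6.49, 7.09 and 7.22 and Fgfr3 at 4.74, 4.51 and 4.19, whereas Fgfr4 lay under 4 on all arrays. The other probe sets had means of 6.42 and 6.30 for Fgfr1, 5.22 and 2.48 for Fgfr2 and 2.88 for Fgfr3. Heparan sulphate co-receptors of the fibroblast growth factor receptors included Sdc1 (13.52, 13.13 and 13.45), Sdc4 (11.78, 12.60 and 12.25) and Gpc6 (12.04, 12.11 and 12.08). Genes known to be induced by this signalling were strong and even: the phosphatase gene Dusp6 was at 13.29, 13.90 and 13.43, Phlda1 at 13.30, 13.55 and 13.67, Spred1 at 11.99, 11.59 and 11.53 and the feedback inhibitor Spry2 at 11.07, 10.94 and 11.30. Of the ligands, Fgf7, a stromal factor that acts on epithelium, was at 13.63, 13.34 and 13.74, Fgf5 was the most spread at 5.56, 6.98 and 8.04, and Fgf2, the gene of the supplied factor, lay under 4 on all arrays. Egfr was at 7.81, 6.78 and 7.41 on its strongest probe set, and its other probe sets had means of 7.17, 5.74, 3.59, 3.44, 2.80 and 2.24. Erbb2 was close to 4 on every array. Erbb4 and the ligand gene Egf lay under 4, while the ligand gene Ereg was at 13.48, 13.56 and 13.41 and the feedback genes Lrig1 (12.35, 12.29 and 12.15) and Errfi1 (12.69, 11.37 and 11.29) were strong.

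**Figure D3:**
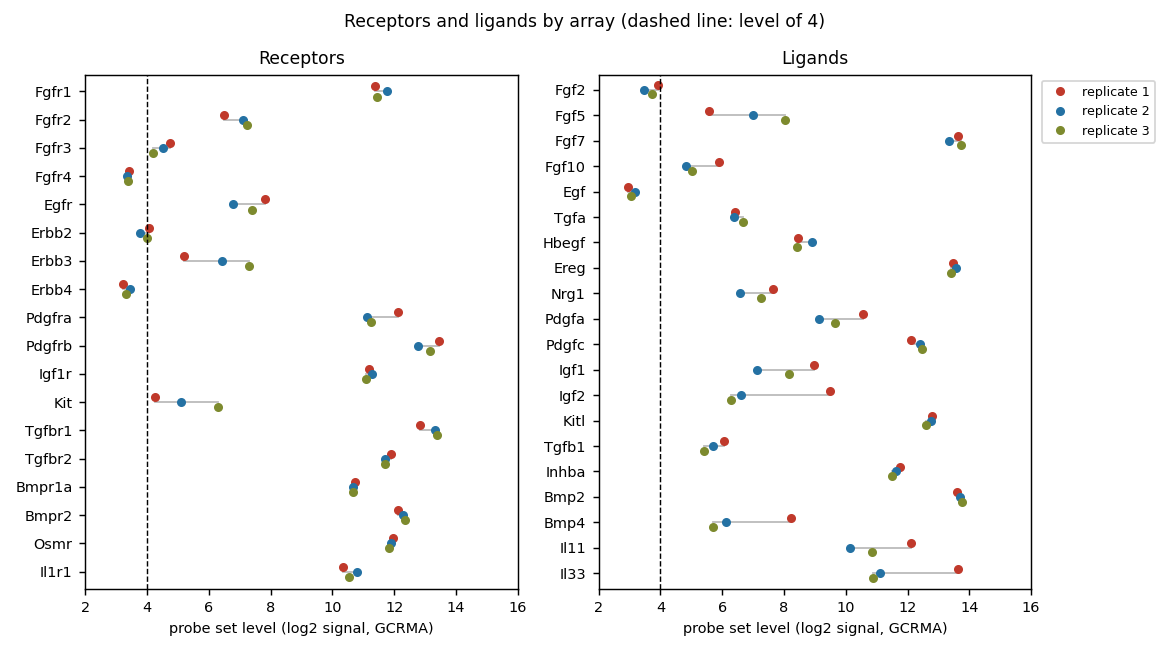
Level (log2 signal) of receptor and ligand genes on each of the 3 arrays, with 1 point per array and a grey line over their range. Each gene is shown by its strongest probe set. Fgfr1, Ereg and Bmp2 lie close together on the arrays, whereas Igf2, Il33 and Kit are spread, with replicate 1 highest for Igf2 and Il33 and lowest for Kit.

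Other receptor tyrosine kinases were read for 25 of 37 genes (67.6%, against 58.6% of all genes). Igf2r was at 12.39, 13.08 and 12.50, Epha3 at 11.10, 12.01 and 11.99 and Pdgfra at 12.12, 11.13 and 11.24 beside Pdgfrb. Kit was uneven on its strongest probe set, at 4.25, 5.11 and 6.29, and under 4 on all arrays on its other. Insulin-like growth factor binding proteins led the growth factor ligand list, of which 22 of 25 reached 4 on all arrays: Igfbp4 was at 12.80, 13.93 and 13.36 and Igfbp7 at 13.16, 13.06 and 13.18. Igf2 was the most spread, at 9.49, 6.59 and 6.28, 9.22-fold from highest to lowest array. The other probe set of Igf2 lay under 4 on all arrays. In the TGF-beta and BMP list 31 of 38 reached 4 on all arrays and 15 had a mean of 10 or above. The ligand gene Bmp2 was at 13.59, 13.69 and 13.76, the receptor genes Tgfbr1 at 12.82, 13.32 and 13.37 and Tgfbr3 at 12.38, 12.59 and 12.44, and the binding protein gene Fstl1 at 13.14, 12.75 and 13.12, while the antagonists Nog and Chrd lay under 4. Bmp4 was the most spread, at 8.23, 6.12 and 5.71, with replicate 1 highest.

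Wnt components were read for 29 of 42 genes, but only 3 had a mean of 10 or above (7.14%, against 14.7% of all genes): the secreted antagonist gene Frzb (12.85, 13.82 and 13.79), Wnt5a (12.07, 12.01 and 12.02) and the receptor gene Fzd1 (10.63, 10.03 and 10.18). The target Axin2 was close to 4 on every array. Among Notch and Hedgehog genes 16 of 26 reached 4 on all arrays, with Gas1 at 13.26, 13.57 and 13.43 and Notch2 at 10.75, 11.23 and 11.22, while the ligands Shh and Ihh and the target Gli1 lay under 4. Of 36 G protein-coupled receptor genes, 22 reached 4 on all arrays, led by the X-linked angiotensin receptor gene Agtr2 (13.27, 11.25 and 11.95), the thrombin receptor gene F2r (12.03, 11.61 and 11.41) and Calcrl (11.72, 11.28 and 11.66). Integrin genes were read for 15 of 24, with Itgb1 at 11.96, 11.94 and 12.12, Itga8 at 11.99, 11.55 and 11.79 and Itga6 at 12.04, 11.22 and 11.06. The shares of the Notch and Hedgehog (61.5%), G protein-coupled receptor (61.1%) and integrin (62.5%) lists were close to the 58.6% of all genes that reached 4. Of the Wnt list 69% did. Among nuclear receptors and retinoid genes 23 of 34 (67.6%) reached 4 on all arrays. After Crabp1, Nr4a2 was at 12.82, 12.50 and 12.69 and Nr1d2 at 12.05, 12.52 and 12.54, and the retinoic acid receptor gene Rarb was the most spread at 7.62, 4.56 and 4.62, with replicate 1 highest.

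Genes of proliferation and stress describe the state of the spheres. Of 39 cell cycle genes, 34 (87.2%) reached 4 on all arrays, against 58.6% of all genes. The D-type cyclin genes Ccnd1 and Ccnd2 were at 13.00, 12.95 and 12.78 and at 12.87, 12.66 and 12.67. The inhibitor genes Cdkn2b (12.52, 12.25 and 12.22) and Cdkn1a (11.74, 12.57 and 12.30) had means above 12, while mitotic genes gave weaker signals, for example Mki67 at 7.76, 7.09 and 6.90, and Plk1 and Tyms lay under 4. All 24 immediate early genes reached 4 on all arrays and 13 (54.2%) had a mean of 10 or above, against 58.6% and 14.7% of all genes. Ier3 was at 13.72, 13.64 and 13.25, Dusp1 at 13.15, 13.02 and 12.66, Fos at 12.68, 13.02 and 12.39 and Socs3 at 12.73, 12.29 and 12.66. All 23 genes of hypoxia and glycolysis also reached 4 on all arrays, against 58.6% of all genes. Ldha was at 13.70, 14.14 and 13.87, the glucose transporter gene Slc2a1 at 14.13, 13.63 and 13.61, Aldoa at 13.74, 13.69 and 13.46 and Hif1a at 13.11, 12.73 and 12.87.

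Other cell types of the palate were looked for through their defining genes. Ptprc, carried by all leukocytes, was at 2.13, 2.94 and 3.19, and the macrophage genes Csf1r, Cd68 and Aif1 lay under 4 on all arrays, while Tyrobp passed 4 on replicate 3 alone (2.81, 3.58 and 4.18). Of 28 macrophage markers 10 reached 4 on all arrays, against 58.6% of all genes. The 4 strongest were Lgals3 (13.34, 13.86 and 13.23) and Cd14 (11.19, 9.10 and 9.34), which stromal cells also express, the inhibitory IgG receptor gene Fcgr2b (11.55, 10.27 and 9.98) and Trem2, a receptor of the myeloid lineage (8.02, 9.19 and 7.93), followed by the leukocyte tetraspanin gene Cd53 (9.11, 7.21 and 7.92). The other probe sets of Trem2 (mean 3.93) and Cd53 (mean 2.82) lay under 4 on all arrays. So the macrophage list was split, with its defining genes low and several other members well above 4 on their strongest probe set. The granulocyte genes Mpo and Elane and the lymphocyte genes Cd3e and Cd79a lay under 4. Of 12 granulocyte genes 3 reached 4 on all arrays, S100a8, Camp and the protease gene Prtn3 (6.61, 5.86 and 4.85), and of 18 lymphocyte genes 2 did, Gzmb (4.17, 4.91 and 4.77) and Ighm, close to 4. In the endothelial list 4 of 20 reached 4 on all arrays. They were the receptor partner gene Ramp2 (7.98, 9.29 and 8.18), the VEGF receptor gene Flt1 (8.26, 7.65 and 7.13), Egfl7 (7.12, 7.01 and 6.56) and Plvap (5.35, 6.64 and 5.75), while the defining Pecam1, Cdh5 and Kdr lay under 4. In the melanocyte list 3 of 11 did, Gpnmb (11.03, 10.02 and 9.02), the transcription factor gene Mitf (9.83, 8.70 and 8.67) and, on its strongest probe set only, Kit. The defining Tyr, Dct and Pmel lay under 4. For epithelium, 8 of 29 genes reached 4 on all arrays, led by Itga6, which is also an integrin of other cells, Perp and Krt10 (7.49, 8.23 and 8.22). The defining Cdh1 and Krt14 lay under 4, while Epcam was at 5.58, 5.42 and 5.52 and Krt5 at 4.31, 4.15 and 4.29. The other probe set of Epcam lay under 4 on all arrays. Perp, a desmosome gene, was the most spread epithelial member, at 6.42, 9.80 and 9.69, with replicate 1 lowest. Ly6g and Plin1, also fixed as defining, were not analysed here.

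**Figure D4:**
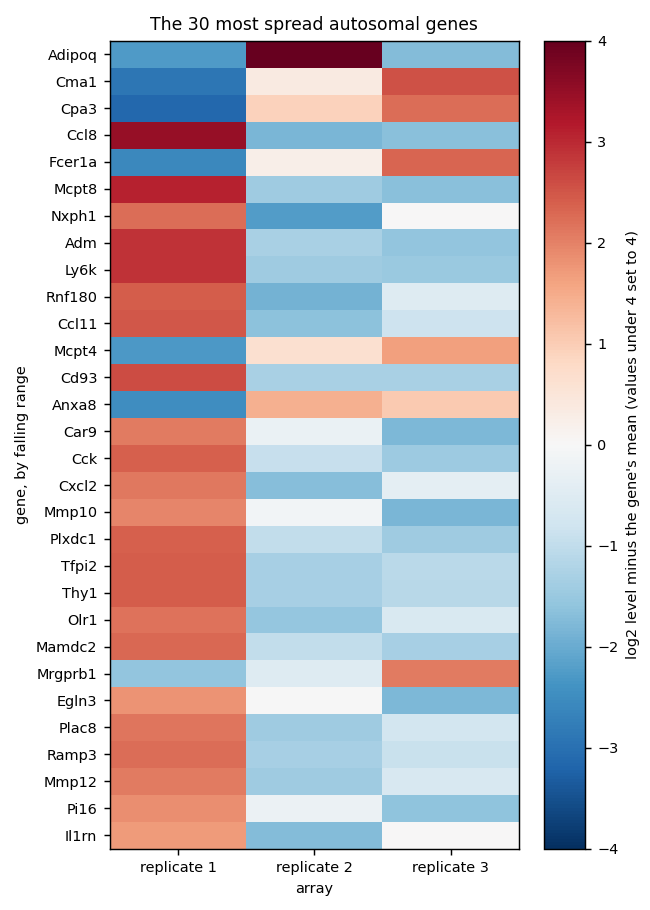
The 30 autosomal genes with the largest range over the arrays, 1 row per gene and 1 column per array, coloured by the log2 level minus the gene's own mean with values under 4 set to 4. Replicate 1 stood apart on the high side for 21 of the genes and on the low side for 5, and Adipoq is high on replicate 2 alone.

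The 30 most spread genes had ranges from 3.45 to 6.25 on the log2 scale. Adipoq, the adipokine gene, headed them and is described with its list below. Genes highest on replicate 1 included the chemokine genes Ccl8 (11.63, 6.31 and 6.48) and Ccl11 (12.93, 8.82 and 9.62), the peptide genes Adm (9.20, 5.00 and 4.75) and Cck (11.50, 8.20 and 7.66), and the surface genes Thy1, Cd93 (8.74, 4.82 and 4.83) and Ly6k (8.44, 4.12 and 4.08). In each of these the values of replicates 2 and 3 lay close together and far below replicate 1. Nxph1, a neurexin ligand, was also highest on replicate 1, at 11.25, 6.79 and 9.02, as was the interleukin-1 receptor antagonist gene Il1rn at 8.58, 5.13 and 6.88, but in both replicate 3 lay well above replicate 2. Anxa8, an annexin, was lowest on replicate 1, at 5.87, 9.79 and 9.40. Mast cell genes are given with their list. The others, all highest on replicate 1, were Rnf180, Car9, Cxcl2, Mmp10, Plxdc1, Tfpi2, Olr1, Mamdc2, Egln3, Plac8, Ramp3, Mmp12, Pi16 and Mcpt8.

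Mast cell genes carried one clear difference between the arrays. Mast cells are tissue-resident leukocytes that store proteases with serglycin in granules and carry the high-affinity IgE receptor, and GATA factors are known regulators of their genes. Of 28 list members 8 reached 4 on all arrays, and of 16 examined for spread 12 (75.0%) were spread 2-fold or more and 8 were spread 4-fold or more, against 8.69% and 1.79% of all genes examined. In 11 of the 12, replicate 1 was lowest and replicate 3 highest. The carboxypeptidase gene Cpa3 was at 6.45, 10.53 and 11.82 (41.4-fold from the highest to the lowest array) and the chymase gene Cma1 at 4.42, 7.68 and 9.88 (43.9-fold). The IgE receptor chain Fcer1a was at 3.55, 6.82 and 8.90, at least 30.0-fold, since replicate 1 lay under 4. Mcpt4 was at 4.35, 7.30 and 8.29, the receptor gene Mrgprb1 at 3.38, 5.07 and 7.63 and the stem cell factor receptor Kit at 4.25, 5.11 and 6.29. The defining Tpsb2 and Ms4a2 passed 4 on replicates 2 and 3 only. These levels are of the strongest probe sets, and the other probe sets of Kit, Tpsb2 and Ms4a2 lay under 4 on all arrays. Mcpt8, a protease gene known from basophils, was the single exception among the 12 spread genes, at 10.33, 5.84 and 5.58. Summed on the linear scale, the 28 genes gave 1860.2, 2765 and 6718 signal units, Mcpt8 included. The macrophage-shared leukocyte genes Laptm5 (5.04, 6.64 and 7.50) and Tyrobp had the same order of arrays, while Ptprc stayed under 4 on all. The other probe sets of Laptm5 had means from 3.47 to 4.17, and the strongest of these ran the reverse way (4.33, 4.23 and 3.96). Of 12 macrophage members examined, 7 (58.3%) were also spread 2-fold or more, against 8.69% of all genes examined. These 7 had no common order: 3 were highest on replicate 1, 2 on replicate 2 and 2 on replicate 3. With probe sets ending in _s_at, _x_at or _a_at left out, which can read more than 1 transcript, 7 mast cell genes were spread and 6 of them were lowest on replicate 1. Without replicate 3, 7 of the list were spread. Which cells gave these signals was not tested.

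The promoters of 4 of these genes are shown because their levels moved together over the arrays. They are the 250 bases before each gene's start in RefSeq (GRCm38.p6), read 5′ to 3′ on the gene's strand, with matches to AGATAA or AGATAG or TGATAA or TGATAG on either strand in capitals, letters that GATA factors are known to bind. All 4 genes lie on the minus strand. The window of Cpa3 is chr3:20242182-20242431, with a match starting 46 bases before the start, and that of Cma1 is chr14:55944676-55944925, with a match 79 bases before. For Fcer1a it is chr1:173227230-173227479 with a match 92 bases before, and for Mcpt4 chr14:56062311-56062560 with a match 103 bases before.
Cpa3: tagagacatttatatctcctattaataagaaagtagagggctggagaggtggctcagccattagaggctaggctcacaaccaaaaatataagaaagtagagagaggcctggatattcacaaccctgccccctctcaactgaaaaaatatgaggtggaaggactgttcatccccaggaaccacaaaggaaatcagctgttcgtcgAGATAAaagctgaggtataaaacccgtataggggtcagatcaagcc
Cma1: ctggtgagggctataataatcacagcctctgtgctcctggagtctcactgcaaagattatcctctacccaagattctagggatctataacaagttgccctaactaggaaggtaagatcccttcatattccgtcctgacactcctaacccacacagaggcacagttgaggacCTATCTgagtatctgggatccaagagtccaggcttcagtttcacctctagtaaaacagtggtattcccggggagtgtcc
Fcer1a: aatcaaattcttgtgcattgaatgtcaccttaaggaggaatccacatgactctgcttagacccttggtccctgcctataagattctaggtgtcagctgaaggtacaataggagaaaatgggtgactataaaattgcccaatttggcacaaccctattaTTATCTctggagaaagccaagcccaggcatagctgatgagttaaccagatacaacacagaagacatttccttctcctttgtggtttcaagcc
Mcpt4: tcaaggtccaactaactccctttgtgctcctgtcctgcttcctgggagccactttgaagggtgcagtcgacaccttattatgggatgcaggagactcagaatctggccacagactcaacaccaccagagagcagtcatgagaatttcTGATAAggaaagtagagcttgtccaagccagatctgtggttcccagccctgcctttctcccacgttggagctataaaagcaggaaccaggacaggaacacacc
Of the 12 spread mast cell genes 10 were found in the promoter table, and 7 of these held at least 1 match, against 29.7% of the 27025 genes in the table. Kit, Srgn and Mcpt8 held none in this window. These matches describe letters in a window chosen with the levels known, and no binding was measured.

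Fat cell genes differed in another way. Of 14 adipocyte members 12 reached 4 on all arrays, of 13 examined 11 (84.6%) were spread 2-fold or more, and 10 of these were highest on replicate 2, against 8.69% and 1.85% of all genes examined. Adipoq was at 4.80, 11.05 and 5.34, 76.0-fold from the highest to the lowest array. The fatty acid transporter gene Cd36 was at 8.26, 11.57 and 8.56, the lipase gene Lpl at 10.79, 13.64 and 10.96 and the triglyceride synthesis gene Dgat2 at 7.10, 9.38 and 8.26. In all 4 replicate 2 was the highest array, and the other 2 were close to each other in all but Dgat2. The regulator gene Cebpa was at 8.61, 10.42 and 9.50, whereas Fabp4 was strong on every array, at 14.16, 14.49 and 13.88, as was Apod at 13.79, 14.44 and 14.22. The summed linear level of the 14 genes was 39529, 75528 and 42130.3 signal units. Of 18 skeletal muscle genes 4 reached 4 on all arrays and 9 lay under 4 on all. Of 9 examined 3 (33.3%) were spread 2-fold or more, against 8.69% of all genes examined. These 3 were Myl1 (5.46, 8.02 and 5.57), Acta1 (4.86, 6.98 and 5.03) and Mylpf (4.64, 6.56 and 5.32). All 3 were highest on replicate 2, while 1.85% of all genes examined were spread and highest there. Spread or not, 7 of the 9 were highest on replicate 2, and no share of all genes was calculated for that count. The defining Myod1 and Ckm lay under 4. Without replicate 2, 3 adipocyte genes were spread 2-fold or more. Which cells gave these signals was not tested.

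**Figure D5:**
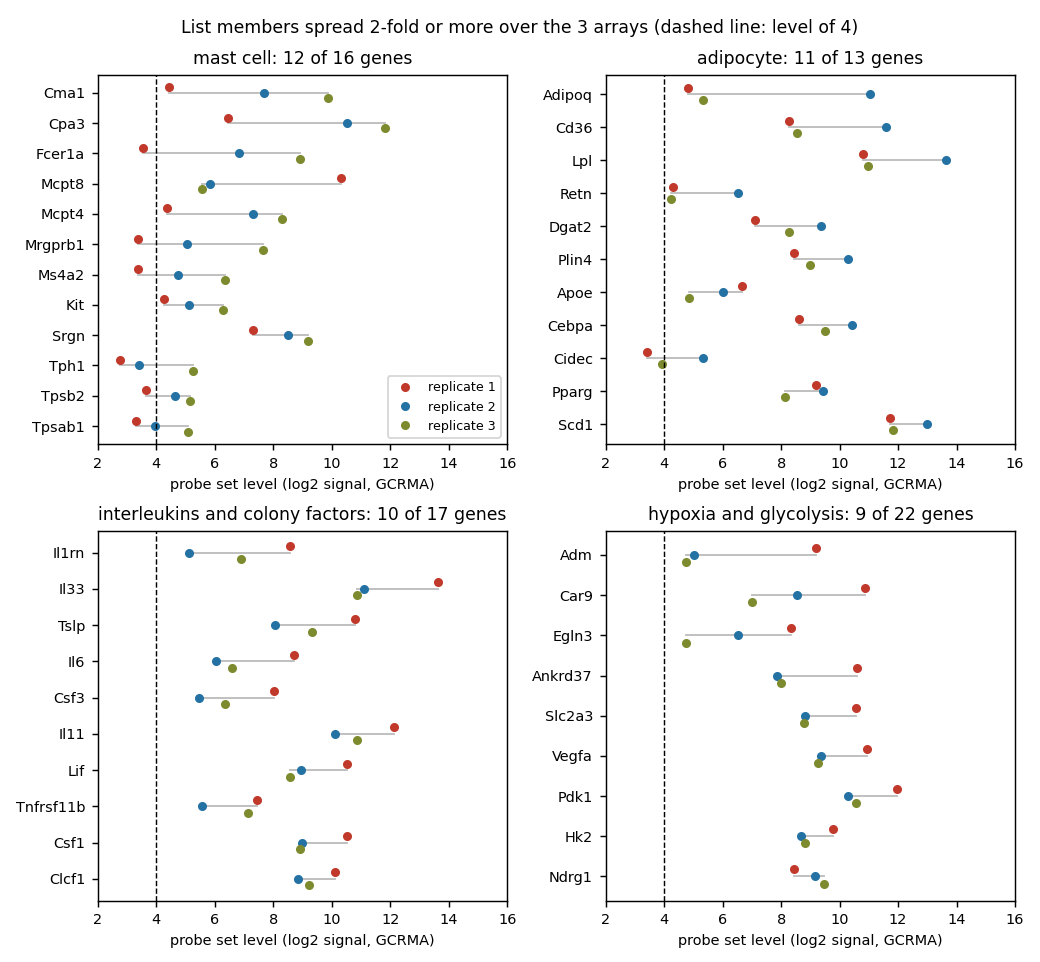
Level (log2 signal) on each array of the members of 4 lists that were spread 2-fold or more, with 1 point per array, a grey line over the range and a dashed line at 4. Mast cell genes are lowest on replicate 1 and highest on replicate 3 except Mcpt8, adipocyte genes are highest on replicate 2 except Apoe, and the interleukin and hypoxia genes are highest on replicate 1 except Ndrg1.

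Inflammatory ligands were a group among genes highest on replicate 1. Of 17 interleukins, colony factors and related genes examined, 10 (58.8%) were spread 2-fold or more and all 10 were highest on replicate 1, against 8.69% and 5.65% of all genes examined. Il6 was at 8.72, 6.03 and 6.60 and Csf3, the granulocyte colony factor gene, at 8.04, 5.47 and 6.35, while Tslp, an epithelial and stromal cytokine gene, was at 10.80, 8.04 and 9.31. For all 3 genes replicate 2 was the lowest array. Of 20 chemokines 9 (45.0%) were spread 2-fold or more and 8 of these were highest on replicate 1. Cxcl2 was at 9.99, 6.16 and 7.47 and Cxcl3 at 10.50, 8.37 and 7.27, and the exception was Cxcl10, highest on replicate 3 at 8.98, 8.88 and 10.01. Cxcl1 and Cxcl5 did not share this pattern and were slightly lower on replicate 1. Summed on the linear scale, interleukins and related genes gave 39376, 19448 and 21682 signal units and chemokines 37362, 23451 and 22490.0. Ptprc, Csf1r, Cd68 and Aif1, the defining leukocyte and macrophage genes, were under 4 on replicate 1 as on the others, whereas the macrophage list members Cd14, Fcgr2b and Cd53 were highest on replicate 1, at the levels given above. The summed linear level of the 28 macrophage genes was 16854, 17825 and 12249 signal units, and their part in this pattern was not tested. Without replicate 1, 3 interleukins and related genes and 4 chemokines were spread 2-fold or more, and without replicate 3, 10 and 5 were.

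Several genes of the hypoxic response were also highest on replicate 1. Cells short of oxygen stabilise HIF factors, which bind the letters ACGTG or GCGTG near genes of glycolysis, acid balance and vessel growth. Of 22 members examined, 9 (40.9%) were spread 2-fold or more and 8 of these were highest on replicate 1, against 8.69% and 5.65% of all genes examined. Spread or not, 16 of the 22 were highest on replicate 1, and no share of all genes was calculated for that count. Adm, the vasodilator adrenomedullin, was 21.8-fold from the highest to the lowest array at the levels given above. The carbonic anhydrase gene Car9 was at 10.88, 8.54 and 7.02, the HIF prolyl hydroxylase gene Egln3 at 8.33, 6.52 and 4.75, Ankrd37 at 10.59, 7.86 and 7.99 and Vegfa at 10.94, 9.35 and 9.26. Car9 and Egln3 differed among all 3 arrays, whereas Ankrd37 and Vegfa were near equal on replicates 2 and 3. Ndrg1 had the reverse order, at 8.45, 9.15 and 9.46, and the abundant Ldha, Aldoa and Hif1a were not spread 2-fold. Without replicate 1, 2 genes of the list were spread 2-fold or more.

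The promoters of Adm, Car9 and Egln3 are shown as those of the widest range in this list, as the 250 bases before the start in RefSeq (GRCm38.p6), read as above with matches to ACGTG or GCGTG on either strand in capitals. Adm lies at chr7:110627407-110627656 on the plus strand, with matches starting 90 and 54 bases before the start. Car9 lies at chr4:43506776-43507025 on the plus strand with a match 18 bases before, and Egln3 at chr12:54203875-54204124 on the minus strand with a match 229 bases before.
Adm: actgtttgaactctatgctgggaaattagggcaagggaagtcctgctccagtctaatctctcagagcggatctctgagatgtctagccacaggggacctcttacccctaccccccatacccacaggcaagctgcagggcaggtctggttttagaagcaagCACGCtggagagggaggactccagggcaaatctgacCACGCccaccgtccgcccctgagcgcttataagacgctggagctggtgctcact
Car9: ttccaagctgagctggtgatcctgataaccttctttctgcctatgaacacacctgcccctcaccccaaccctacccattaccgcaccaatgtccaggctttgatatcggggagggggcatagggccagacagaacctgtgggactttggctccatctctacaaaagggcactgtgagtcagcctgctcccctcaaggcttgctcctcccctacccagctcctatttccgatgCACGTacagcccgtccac
Egln3: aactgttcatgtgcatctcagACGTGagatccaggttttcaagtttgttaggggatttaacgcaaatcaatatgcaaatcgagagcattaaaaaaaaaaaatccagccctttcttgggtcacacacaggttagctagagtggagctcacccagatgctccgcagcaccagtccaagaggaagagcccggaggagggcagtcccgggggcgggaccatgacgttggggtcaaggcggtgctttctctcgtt
All 7 of the 9 spread hypoxia genes that were found in the promoter table held at least 1 match, against 41.5% of all genes in it and 4 of the 10 mast cell genes. The GATA letters were held by 2 of these 7. Overlapping matches were counted separately, and no motif of one kind contains the other. These genes came from a list of hypoxia genes and were chosen with their levels known. The shares are thus no test, and no binding was measured.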

How the data were processed

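The labels' protocols describe total RNA of passage 3 neurospheres, labelled and hybridised to Affymetrix mouse arrays. Deposited were log2 values of 45101 probe sets, made by the authors with GCRMA per the submitters' processing notes, which give no version; GCRMA corrects background and normalizes quantiles, so a shift of most genes on 1 array would not show. That the scale is log2 was taken from the values. The 3 pNCSC columns were used, matched by title, and no fit or test was made. Having 3 arrays limits the precision.

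GEO's platform annotation named the probe sets. A single symbol was given for 34958, those with more than 1 (932) were not used, and 9211 have no name here. Of 18194 genes 9012 had several probe sets. A RefSeq gene table (GRCm38.p6) gave chromosomes and the 250-base promoter windows. Values were summarised with Python 3.11.15, numpy 2.4.6 and pandas 2.3.3, and plotted with matplotlib 3.10.9. The spread step was tested on simulated data.

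The arrays described and the 50 gene lists (1065 distinct genes analysed here, 80 not analysed here) were chosen with earlier results of these data known. Some genes stand on several lists. Named were the 30 genes with the highest means, the 30 autosomal genes with the widest range (no clone or predicted names), the culture markers, the label genes and, per list, genes among the 4 strongest, the most spread and the defining members under 4; not every such gene is printed. Growth factor receptors, ligands and members of the macrophage, mast cell, adipocyte, hypoxia and inflammatory lists beyond these were named after their values were seen. Alternatives covered the choice of probe set, quantile normalization, median centring, leaving out each array, and the levels of 4 and 10.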

Additional observations from a re-analysis of the deposited data

How the results depend on the processing

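No paired analysis was possible because 1 group was described alone and no result comes from a test. With the mean of all probe sets of a gene, 1220 genes had a mean of 10 or above in place of 2678, 123 were spread 4-fold or more in place of 198, and 3 spread palate and craniofacial factors were highest on replicate 1 in place of 5. At a level of 11 in place of 10, 1615 genes passed. With probe sets ending in _s_at, _x_at or _a_at left out, 6 spread mast cell genes were lowest on replicate 1 in place of 11; 7 mast cell genes were then spread 2-fold or more in place of 12. Leaving out each array gave 150 to 792 genes spread 2-fold or more and 17 to 163 spread 4-fold or more, the lowest counts without replicate 1; without replicate 2 the counts were 613 and 131. Of the 961 spread genes, 149 were also spread without replicate 1, 922 after quantile normalization, 953 after median centring and 624 with the mean of all probe sets. The counts of genes and of listed genes at 4 or above stayed within 1.5 times under all alternatives run, those at a floor of 3 or 5 included. With a floor of 3, the members read changed by over 1.5 times for 19 of the 50 lists, and with a floor of 5 for 7. They also did so for 7 lists with those probe sets left out (oligodendrocyte, smooth muscle, skeletal muscle, macrophage, mast cell, MHC and dendritic cell, and acute phase), for the Hox and lymphocyte lists with the mean of all probe sets, and for the mast cell list without replicate 1. Levels depended on the choice of probe set: of 36 named genes whose level was followed, 28 moved by more than their SD over the arrays with the mean of all probe sets, as did 13 of the 19 that could be followed with those probe sets left out, and 1 after quantile normalization. Leaving out replicate 3 lowered the spread chemokines from 9 to 5, and leaving out replicate 1 lowered the spread palate and craniofacial factors from 8 to 1. Probe sets near 4 give no level, so absence of a weakly expressed gene cannot be read from them.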
